A study of Mus musculus with 12 samples.

Results

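The genes described here encode the degradative machinery of the lysosome: its proteases, its glycan and lipid hydrolases with their helper proteins, its membrane proteins, the transcription factor Tfeb and the subunits of the vacuolar proton pump. The set was defined by name, as 29 listed symbols plus every row whose symbol begins with Atp6v0 or Atp6v1, which added 19 rows. Of these 48 genes, 47 were found among the 25919 rows of the deposited count table, and Laptm5 is not analysed here. The libraries compared were 4 labelled CD40 at day 2 and 2 labelled Kupffer cells at day 0, all from the livers of C57BL/6 mice aged 7 weeks. The labels name no treatment, genotype, sort or event from which the days were counted, and they do not say whether libraries came from separate animals, so the p-values measure only the spread between these libraries, which may be technical. The cell label and the day differ together, and their effects cannot be told apart. Kupffer cells are the resident macrophages of the liver sinusoids. A further 6 libraries, Kupffer cells at day 7 (2) and Ly6C CD40-negative at day 2 (4), were not read by gene, because some of their columns run from the highest to the lowest count down the table as if sorted apart from the gene names (a row exceeds the row above it 1 time each in Kupffer day 7 a and Ly6C CD40-negative day 2 a). Kupffer day 0 a, which is read by gene here, is in falling order too, with 0 such rows, and calls lost without it are named with the genes. Its shares of Kupffer cell and endothelial markers, 0.527% and 2.05%, stand beside 0.452% and 2.22% in Kupffer day 0 b, which has 7828 such rows.

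Lysosomal enzymes are made at the endoplasmic reticulum, most are tagged with mannose 6-phosphate in the Golgi, and receptors then carry them to endosomes and lysosomes. The vacuolar ATPase, whose V1 sector hydrolyses ATP in the cytosol and whose V0 sector passes protons through the membrane, makes the lumen acidic, which activates the cathepsins. In macrophages this machinery degrades engulfed material and prepares peptides for antigen presentation, and many of its genes carry in their promoters a short palindromic element bound by Tfeb and its relatives Mitf, Tfe3 and Tfec.

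That element was looked for on both strands of the RefSeq promoter windows (GRCm38.p6, 250 bases before to 50 after the start), which matched 36 of the 47 genes. Its core TCACGTGA occurred in 1.12% of symbols (27025 with a window) and in 7 of the 36 (19.4%). These 7 stretches are shown because they are the lysosomal promoters that hold the core, marked in capitals. The full CLEAR palindrome, which is the core with a G before it and a C after it, occurred in 0.37% of symbols and in 0 of the 36. The shorter form TCACGTG, which lies within the core, was found in 11 of the 36 (30.6%) and 4.29% of symbols, and CACGTG, which lies within both, in 13 (36.1%) and 8.09% of symbols. The sequences run 5′ to 3′ on the strand of the gene.
Atp6v0d1 (chr8:105566035-105566094, minus strand): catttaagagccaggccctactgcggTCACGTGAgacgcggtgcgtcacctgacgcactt
Atp6v0e (chr17:26676372-26676431, plus strand): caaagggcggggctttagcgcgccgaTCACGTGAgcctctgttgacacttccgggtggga
Atp6v1a (chr16:44139358-44139417, minus strand): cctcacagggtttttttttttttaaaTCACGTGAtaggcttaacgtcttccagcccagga
Ctsa (chr2:164833734-164833793, plus strand): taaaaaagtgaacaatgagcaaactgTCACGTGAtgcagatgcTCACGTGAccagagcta
Ctsd (chr7:142387893-142387952, minus strand): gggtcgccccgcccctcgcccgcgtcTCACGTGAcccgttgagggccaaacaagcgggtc
Gla (chrX:134601200-134601255, minus strand): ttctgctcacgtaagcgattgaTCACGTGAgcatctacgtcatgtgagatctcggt
Mcoln1 (chr8:3500447-3500506, plus strand): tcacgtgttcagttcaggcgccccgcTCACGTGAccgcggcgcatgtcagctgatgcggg
In Ctsa the core stood at 2 places of the stretch. A match in these letters is a description of the window and not a mapped binding site.

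The whole windows of the protease genes with the largest rise (Ctsz) and a large fall (Ctsl) are shown for contrast. Ctsz holds none of the 4 forms, and Ctsl holds CACGTG only, in capitals, with its first base at position -236 from the start.
Ctsz (chr2:174438990-174439289, minus strand): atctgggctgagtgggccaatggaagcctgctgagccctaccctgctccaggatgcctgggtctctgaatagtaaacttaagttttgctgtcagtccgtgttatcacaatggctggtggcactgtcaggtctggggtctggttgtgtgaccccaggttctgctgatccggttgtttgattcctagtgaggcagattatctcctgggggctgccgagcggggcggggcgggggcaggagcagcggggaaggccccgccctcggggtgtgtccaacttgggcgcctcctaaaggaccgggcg
Ctsl (chr13:64370471-64370770, minus strand): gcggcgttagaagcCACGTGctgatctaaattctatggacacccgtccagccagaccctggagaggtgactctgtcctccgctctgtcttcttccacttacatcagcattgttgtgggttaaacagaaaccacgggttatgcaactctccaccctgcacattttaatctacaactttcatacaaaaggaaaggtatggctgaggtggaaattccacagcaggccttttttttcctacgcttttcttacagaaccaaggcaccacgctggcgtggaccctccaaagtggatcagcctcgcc

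The libraries held between 725683 and 2271228 counts in the CD40 day 2 group, against 1612435 and 688498 counts in the Kupffer day 0 group. Marker lists set the groups apart. The 11 Kupffer cell markers together took 0.00896% to 0.0110% of counts in CD40 day 2, against 0.527% and 0.452% in Kupffer day 0. Of the 7 that passed the filter on low counts in both groups, 6 were lower, and the other 4 passed it through Kupffer day 0 alone, which left them only that direction. Markers of liver sinusoidal endothelial cells, whose own lysosomes clear material from blood, took 0.0438% to 0.0973% in CD40 day 2 against 2.05% and 2.22% in Kupffer day 0, and 13 of the 13 that passed in both groups were lower. Stellate cell and fibroblast markers took 0.00289% to 0.0119% in CD40 day 2 and 0.172% and 0.144% in Kupffer day 0. Only 2 of the 8 tested passed in both groups, both lower, and Col1a1, not tested, had 0 counts in every CD40 day 2 library and 3 counts in each Kupffer day 0 library. Hepatocyte markers took 0.0107% to 0.0207% in CD40 day 2 against 0.0611% and 0.144% in Kupffer day 0, with 6 of the 7 that passed in both groups lower. Classical monocyte markers took 1.63% to 2.21% in CD40 day 2 against 0.176% and 0.152% in Kupffer day 0, and 8 of the 9 that passed in both groups were higher. In bulk RNA, fewer cells of a type and less RNA per cell cannot be told apart, and the part of cell mixture in the results that follow was not tested.

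Across the set, the lysosomal genes moved in both directions, with more rises than falls. Of 37 genes that passed the filter on low counts, 16 were higher in CD40 day 2 (43.2%) and 10 were lower (27.0%), while 11 did not pass the test (edgeR quasi-likelihood test, adjusted p under 0.05 over all genes). Without Kupffer day 0 a, calls were fewer among these genes and among all genes tested, and none of the 26 called genes turned direction. With all 6 libraries the background was broad: of 9852 genes tested, 53.4% were called, 23.2% higher and 30.2% lower. The share of higher calls was thus above that of all genes and the share of lower calls close to it. The median log2 fold change of the 37 was 0.50, against -0.10 for all genes tested, with single genes between -5.02 and 2.91. The 6 libraries did not overlap between the groups for 30 of the 37 genes, 19 higher and 11 lower in CD40 day 2, beside 66.6% of all genes (29.7% higher, 36.9% lower). Ctsf passed the low-count filter through the Kupffer day 0 libraries alone, so it could be tested only as a gene high in that group. The 10 genes not tested were Ctse, Ctsk, Atp6v0a4, Atp6v0c, Atp6v0c-ps1, Atp6v0d2, Atp6v0e2, Atp6v1e1, Atp6v1e2 and Atp6v1g3. The rises stood beside a higher monocyte list and the falls beside lower Kupffer, endothelial, stellate and hepatocyte lists, whose part in them was not tested. By summed share of all counts, the set took 2.23%, 1.86%, 2.45% and 2.93% in the CD40 day 2 libraries a to d, against 1.86% and 1.87% in Kupffer day 0 a and b.

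**Figure D1:**
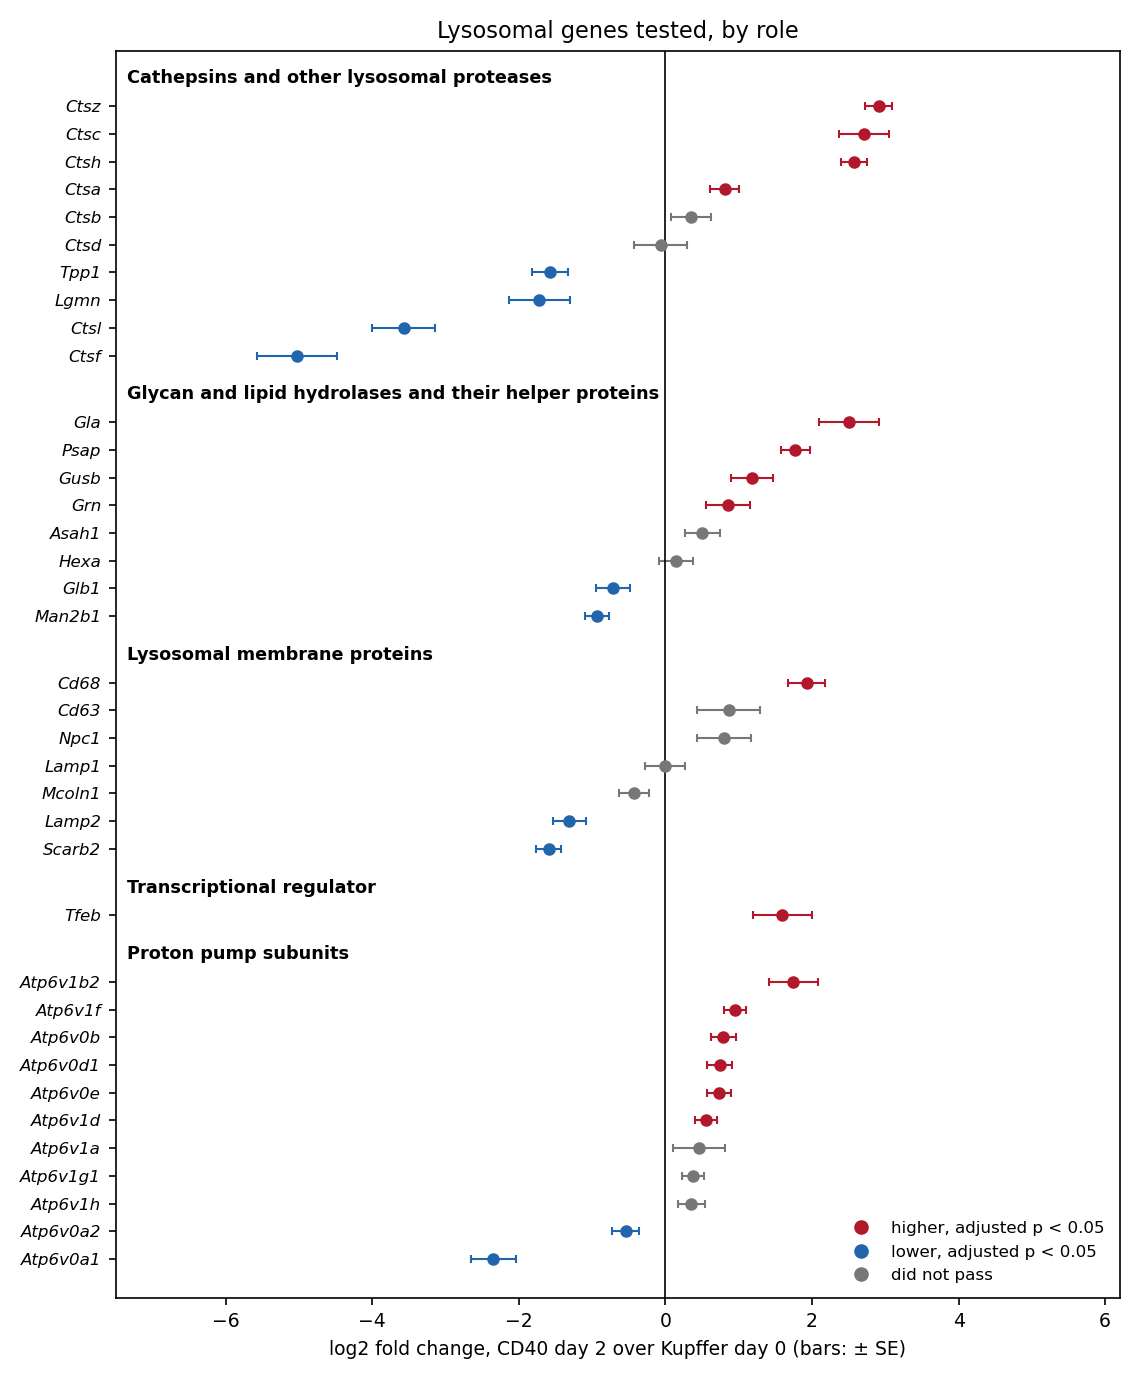
Log2 fold change (CD40 day 2 over Kupffer day 0) of each lysosomal gene tested, grouped by role, with lines of 1 standard error, red for genes called higher, blue for genes called lower and grey for the rest. The proteases spread from -5.02 (Ctsf, which passed the low-count filter through Kupffer day 0 alone) to 2.91. The proton pump subunits apart from Atp6v0a1 lie between -0.54 and 1.75.

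The proteases moved in both directions. Of 10 tested, 4 were higher (40.0%) and 4 lower (40.0%), beside 23.2% and 30.2% of all genes. Of the 9 that passed the filter on low counts in both groups, 4 were higher and 3 lower. Cathepsins Z, C and H rose 5.97- to 7.51-fold, Ctsl fell to a level 11.9-fold lower and Ctsf was almost absent from the CD40 day 2 libraries. Ctsz encodes a carboxypeptidase of the cysteine cathepsin family (chromosome 2, 174427493 to 174439039, GRCm38) and had 3159, 2858, 2531 and 2734 CPM (counts scaled to a common library total) in CD40 day 2, against 360 and 391 CPM in Kupffer day 0. All 4 CD40 day 2 libraries lay far above both Kupffer libraries, with means of 2820 ± 263 and 376 ± 22.2 CPM (SD, n = 4 and 2) and a log2 fold change of 2.91 ± 0.18 (SE, adjusted p = 1.97e-06). Ctsc, a dipeptidyl peptidase that activates the serine proteases of immune cell granules (chromosome 7, 88278085 to 88310888), had 3208, 1487, 3227 and 3336 CPM in CD40 day 2, against 474 and 383 CPM in Kupffer day 0. Library b stood below its 3 companions but still above both Kupffer libraries, and the log2 fold change was 2.71 ± 0.34 (adjusted p = 0.000129). Ctsh, an aminopeptidase (chromosome 9, 90054152 to 90076089), had 1176, 1350, 1098 and 1156 CPM in CD40 day 2 and 196 and 205 CPM in Kupffer day 0. The groups were tight and far apart, at 2.58 ± 0.18 on the log2 scale (adjusted p = 2.97e-06). Ctsa encodes the carboxypeptidase that shields β-galactosidase and neuraminidase, and had 497, 451, 619 and 683 CPM in CD40 day 2, against 337 and 306 CPM in Kupffer day 0. Its rise of 0.81 ± 0.20 (adjusted p = 0.00745) was not called when either Kupffer library was left out.

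The falls included endopeptidases of the cathepsin L type. Ctsl (chromosome 13, 64359337 to 64370890) had 177, 76.4, 206 and 376 CPM in CD40 day 2, against 2535 and 2508 CPM in Kupffer day 0. Every CD40 day 2 library lay far below both Kupffer libraries, and the mean was 209 ± 125 CPM against 2522 ± 18.8 CPM, an 11.9-fold lower level (log2 fold change -3.57 ± 0.43, adjusted p = 8.92e-05). Ctsf, a relative of Ctsl also able to trim the invariant chain of MHC class II in macrophages (chromosome 19, 4855130 to 4860918), had 0, 0, 2 and 6 counts in CD40 day 2, against 85 and 34 counts in Kupffer day 0. In CPM its means were 1.12 ± 1.69 and 48.1 ± 1.03, and the fitted log2 fold change was -5.02 ± 0.55 (adjusted p = 4.77e-05). Ctsf passed the filter on low counts through Kupffer day 0 alone, which left it only that direction. Lgmn, the asparaginyl endopeptidase that processes other lysosomal proteases (chromosome 12, 102394084 to 102439813), had 230, 197, 291 and 693 CPM in CD40 day 2, against 1123 and 1224 CPM in Kupffer day 0. Library d was the highest of its group yet below both Kupffer libraries, and the log2 fold change was -1.72 ± 0.41 (adjusted p = 0.00594). Tpp1, a tripeptidyl peptidase lost in a human ceroid lipofuscinosis (chromosome 7, 105744811 to 105752235), had 84.6, 48.1, 87.9 and 103 CPM in CD40 day 2 and 260 and 230 CPM in Kupffer day 0, without overlap (-1.57 ± 0.24, adjusted p = 0.00044).

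The remaining tested proteases showed no call. Ctsb, a cysteine endopeptidase that also clips dipeptides, had 4185, 2802, 4132 and 6187 CPM in CD40 day 2, against 3221 and 3588 CPM in Kupffer day 0. The groups overlapped, and the log2 fold change was 0.35 ± 0.27 (adjusted p = 0.308). Ctsd, the aspartic endopeptidase, spread from 778 to 2520 CPM in CD40 day 2 around 1702 and 1648 CPM in Kupffer day 0 (-0.07 ± 0.36, adjusted p = 0.896). Ctse had 0, 0, 3 and 5 counts in CD40 day 2 and 0 in both Kupffer libraries, and Ctsk, the osteoclast collagenase, had 17 counts in CD40 day 2 and 10 in Kupffer day 0. Summed over the proteases, the share of counts was 1.30%, 0.979%, 1.35% and 1.68% in CD40 day 2, against 1.11% and 1.10% in Kupffer day 0, so the groups overlapped in the sum although single proteases differed widely. The annotation (GENCODE M21) places exons of another gene on the same strand over Ctsd and Ctsl, and on the opposite strand over Ctsa, Ctsb, Ctsl and Ctsz. Reads shared with those genes were not separated here.

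**Figure D2:**
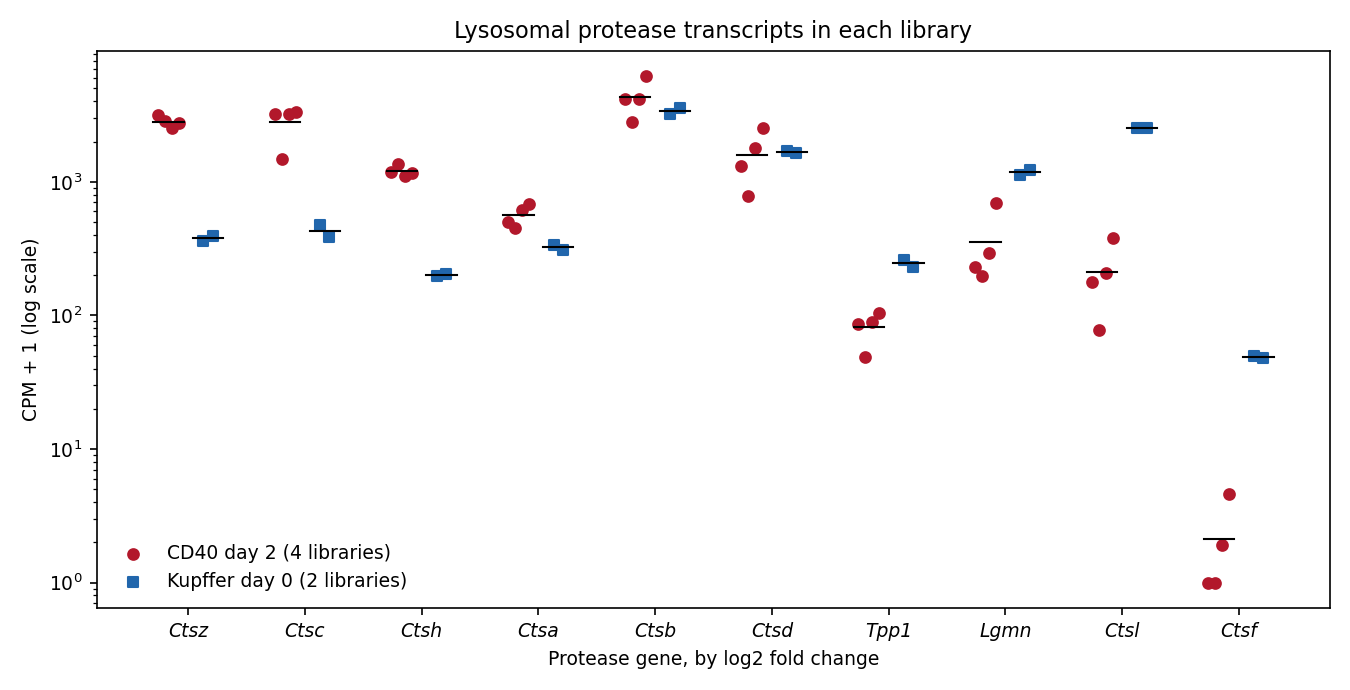
CPM + 1 in each library on a log axis for the lysosomal proteases tested, CD40 day 2 libraries (a to d) left of Kupffer day 0 libraries (a, b), with horizontal bars at group means. Ctsz, Ctsc and Ctsh lie above the Kupffer libraries in all 4 CD40 day 2 libraries, and Ctsl, Ctsf, Lgmn and Tpp1 lie below them.

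Among the glycan and lipid hydrolases and their helpers, 4 of 8 were higher (50%) and 2 lower (25%) in CD40 day 2. The shares of all genes were 23.2% and 30.2%. Gla, the α-galactosidase missing in Fabry disease (chromosome X, 134588149 to 134601125), had 42.8, 29.7, 54.2 and 73.3 CPM in CD40 day 2, against 8.61 and 9.75 CPM in Kupffer day 0. The lowest CD40 day 2 library was above both Kupffer libraries, at 2.51 ± 0.41 on the log2 scale (adjusted p = 0.000666). Psap, the precursor of the saposins that present sphingolipids to their hydrolases (chromosome 10, 60277627 to 60302597), had 1605, 1757, 1712 and 2299 CPM in CD40 day 2, against 499 and 581 CPM in Kupffer day 0. Its rise was 1.77 ± 0.20 (adjusted p = 6.7e-05). Gusb, the β-glucuronidase, had 188, 184, 265 and 307 CPM in CD40 day 2, against 81.0 and 132 CPM in Kupffer day 0 (1.18 ± 0.29, adjusted p = 0.00619), and lost its call without Kupffer library a. Grn, progranulin, whose granulin fragments act in the lysosome, had 1153, 1201, 1877 and 2472 CPM in CD40 day 2 and 950 and 907 CPM in Kupffer day 0. The groups did not overlap, yet the rise of 0.85 ± 0.30 (adjusted p = 0.0382) was lost in 6 of the 12 alternatives run, among them leaving out CD40 day 2 c, CD40 day 2 d, Kupffer a or Kupffer b.

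Man2b1, the α-mannosidase that trims glycoproteins, had 153, 178, 181 and 206 CPM in CD40 day 2, against 342 and 343 CPM in Kupffer day 0. All 4 libraries were below both Kupffer libraries, at -0.93 ± 0.16 (adjusted p = 0.000917). Glb1, the β-galactosidase protected by the product of Ctsa, had 34.6, 25.5, 37.8 and 45.3 CPM in CD40 day 2, against 57.4 and 64.1 CPM in Kupffer day 0 (-0.72 ± 0.23, adjusted p = 0.0268). That call was lost in 5 of the 12 alternatives, among them leaving out CD40 day 2 a, CD40 day 2 c, Kupffer a or Kupffer b, and an exon of Tmppe overlaps Glb1 on the same strand. Hexa, the α-subunit of β-hexosaminidase, had 388, 323, 446 and 598 CPM in CD40 day 2 and 381 and 418 CPM in Kupffer day 0, and overlapped (0.14 ± 0.23, adjusted p = 0.637). Asah1, acid ceramidase, did not pass the test (0.50 ± 0.24, adjusted p = 0.0987). The summed share of these 8 genes was 0.336%, 0.364%, 0.447% and 0.571% in CD40 day 2, against 0.254% and 0.259% in Kupffer day 0.

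Of 7 membrane proteins tested, 1 was higher (14.3%) and 2 lower (28.6%), beside 23.2% and 30.2% of all genes. The called share was 42.9% (3 of 7 genes), beside 53.4% of all genes, and no difference is read from so few genes. Cd68, a heavily glycosylated protein of macrophage endosomes and lysosomes (chromosome 11, 69664213 to 69666153), had 756, 628, 880 and 1144 CPM in CD40 day 2, against 224 CPM in each Kupffer day 0 library. All 4 libraries lay above both Kupffer libraries, at 1.93 ± 0.25 (adjusted p = 0.00015). Lamp2 encodes a lysosomal membrane glycoprotein, a splice form of which is the receptor of chaperone-mediated autophagy. Its forms were not separated here. Lamp2 (chromosome X, 38401357 to 38456454) had 297, 209, 355 and 403 CPM in CD40 day 2, against 776 and 805 CPM in Kupffer day 0 (-1.31 ± 0.23, adjusted p = 0.000872). Scarb2, which carries β-glucocerebrosidase to the lysosome (chromosome 5, 92441314 to 92506833), had 80.1, 65.1, 86.5 and 92.3 CPM in CD40 day 2, against 258 and 235 CPM in Kupffer day 0. Both genes were lower in all 4 CD40 day 2 libraries than in either Kupffer library, Scarb2 by -1.59 ± 0.17 on the log2 scale (adjusted p = 5.07e-05). Lamp1, the other abundant lysosomal membrane glycoprotein, had 645, 436, 884 and 941 CPM in CD40 day 2 around 758 and 699 CPM in Kupffer day 0 (-0.00 ± 0.27, adjusted p = 0.997). Cd63, a tetraspanin, Npc1, the cholesterol exporter, and Mcoln1, a calcium channel, did not pass the test (0.86, 0.80 and -0.43 on the log2 scale).

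Tfeb (chromosome 17, 47737030 to 47792419), the transcription factor that acts on many lysosomal promoters, had 28.2, 35.4, 46.9 and 36.9 CPM in CD40 day 2, against 7.46 and 20.9 CPM in Kupffer day 0. Its means were 36.8 ± 7.69 and 14.2 ± 9.49 CPM, and its rise was 1.60 ± 0.41 on the log2 scale (adjusted p = 0.00811). Without Kupffer library a the adjusted p was 0.159, and the Kupffer libraries also differed in neutrophil markers, which took 0.0934% to 0.179% of counts in CD40 day 2, against 0.0977% in Kupffer a and 0.323% in Kupffer b. The part of this in the Tfeb result was not tested. The core TCACGTGA stood in the promoters of 4 of the 14 genes that rose and had a window, and in 0 of the 9 that fell. The 3 others of the 36 that held it, Atp6v1a, Ctsd and Mcoln1, were not called. TCACGTG stood in 5 of the 14 that rose and in 2 of the 9 that fell. A link between these forms and the calls was not tested. CACGTG stood in 5 of the 14 that rose and in 4 of the 9 that fell.

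Most pump subunits that passed the test were higher. Of the 19 pump rows, 11 were tested. In CD40 day 2, 6 were higher (54.5%) and 2 lower (18.2%), beside 23.2% and 30.2% of all genes. The summed share of the pump was 0.409%, 0.375%, 0.410% and 0.404% in CD40 day 2, against 0.264% and 0.287% in Kupffer day 0. In the cytosolic V1 sector 3 of 6 were higher and none lower, and in the membrane V0 sector 3 of 5 were higher and 2 lower. Atp6v1b2, the B subunit isoform of the ATP-hydrolysing ring (chromosome 8, 69088646 to 69113711), had 184, 90.5, 193 and 214 CPM in CD40 day 2, against 58.6 and 41.8 CPM in Kupffer day 0. Library b was lowest but still above both Kupffer libraries, at 1.75 ± 0.34 (adjusted p = 0.00176). Atp6v1f, a stalk subunit, had 840, 755, 816 and 777 CPM in CD40 day 2, against 394 and 430 CPM in Kupffer day 0 (0.95 ± 0.15, adjusted p = 0.00055), although a near-identical copy of its 3′ end exists in the annotation.

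Of the V0 subunits, Atp6v0b, of the proton-carrying ring, had 877, 703, 861 and 795 CPM in CD40 day 2, against 427 and 513 CPM in Kupffer day 0 (0.79 ± 0.17, adjusted p = 0.00329). Atp6v0d1, which joins the sectors, had 492, 400, 455 and 505 CPM in CD40 day 2 and 254 and 302 CPM in Kupffer day 0 (0.74 ± 0.17, adjusted p = 0.00481). Atp6v0e had 1131, 1038, 1018 and 1022 CPM in CD40 day 2, against 567 and 701 CPM in Kupffer day 0 (0.73 ± 0.16, adjusted p = 0.00363). None of these 3 overlapped between groups, but each lost its call without Kupffer library a, as did Atp6v1d (0.55 ± 0.15, adjusted p = 0.0118, also lost without Kupffer library b), which left 2 pump genes called higher. Atp6v1a, Atp6v1g1 and Atp6v1h lay between 0.36 and 0.46 on the log2 scale without passing the test.

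The a subunits, which couple proton flow to rotation and help place the pump in particular membranes, went different ways. Atp6v0a1 (chromosome 11, 101009452 to 101063719) had 6.37, 11.3, 14.6 and 7.74 CPM in CD40 day 2, against 56.8 and 47.4 CPM in Kupffer day 0. It was far lower in every CD40 day 2 library, at -2.35 ± 0.31 (adjusted p = 0.000172). Atp6v0a2 had 56.4, 76.4, 58.7 and 64.9 CPM in CD40 day 2 and 93.0 and 91.9 CPM in Kupffer day 0 (-0.54 ± 0.19, adjusted p = 0.0324), a call lost in 7 of the 12 alternatives, among them leaving out CD40 day 2 a, CD40 day 2 c, Kupffer a or Kupffer b. Tcirg1, the a subunit required by osteoclasts, lies outside the Atp6v symbols and had 215, 228, 228 and 240 CPM in CD40 day 2, against 96.5 and 98.9 CPM in Kupffer day 0. Its rise was 1.22 ± 0.16 (adjusted p = 0.00017), opposite in sign to Atp6v0a1. Counts were too few for the ring subunit Atp6v0c, with 2 counts in CD40 day 2 and 1 in Kupffer day 0, whose 3′ end has near-identical copies among annotated pseudogenes, and Atp6v1e1 had 0 counts in all 6 libraries. That total of 0 among 8255972 counts allows up to 0.369 CPM, which covers counting error only. It does not cover how counts were assigned to genes. Exons of Slc25a18 overlap Atp6v1e1 on the opposite strand, and the part of this in the 0 was not tested.

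The 4 CD40 day 2 libraries differed among themselves in a way that ran through the set. This pattern was chosen after the values were seen. Library b was the lowest of the 4 for 23 of the 37 genes (62.2%, against 33.4% of all genes tested) and library d the highest for 27 of 37 (73.0%, against 26%). The median deviation from the mean of the 4 libraries, on log2(CPM + 1), was -0.05, -0.35, 0.11 and 0.33 in a, b, c and d for the lysosomal genes, and 0.02, -0.02, 0.01 and 0.01 for all genes. For the proteases the median was -0.67 in b and 0.49 in d, and for the pump -0.08 and 0.04. Conventional dendritic cell markers took 0.0253%, 0.0480%, 0.0173% and 0.0168% of counts in CD40 day 2 a to d, against 0.0138% and 0.0198% in Kupffer day 0, and monocyte markers were lowest in b. Neutrophil markers took 0.131%, 0.0934%, 0.162% and 0.179% in CD40 day 2 a to d, against 0.0977% and 0.323% in Kupffer day 0. Of the 9 neutrophil markers tested, 6 were lowest in b, but only 2 were highest in d and 4 were highest in c. S100a8, the most abundant of them, had 797, 457, 1057 and 1327 CPM in CD40 day 2 a to d. Osteoclast-like markers took 0.0173%, 0.0227%, 0.0212% and 0.0312% in CD40 day 2 a to d, against 0.0128% and 0.0199% in Kupffer day 0. Most of these counts were of Acp5, itself a lysosomal hydrolase, with 115, 158, 166 and 255 CPM in CD40 day 2 a to d. Of the 4 osteoclast-like markers tested, 2 were highest in d, Acp5 among them. The part of these markers in the pattern was not tested.

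**Figure D3:**
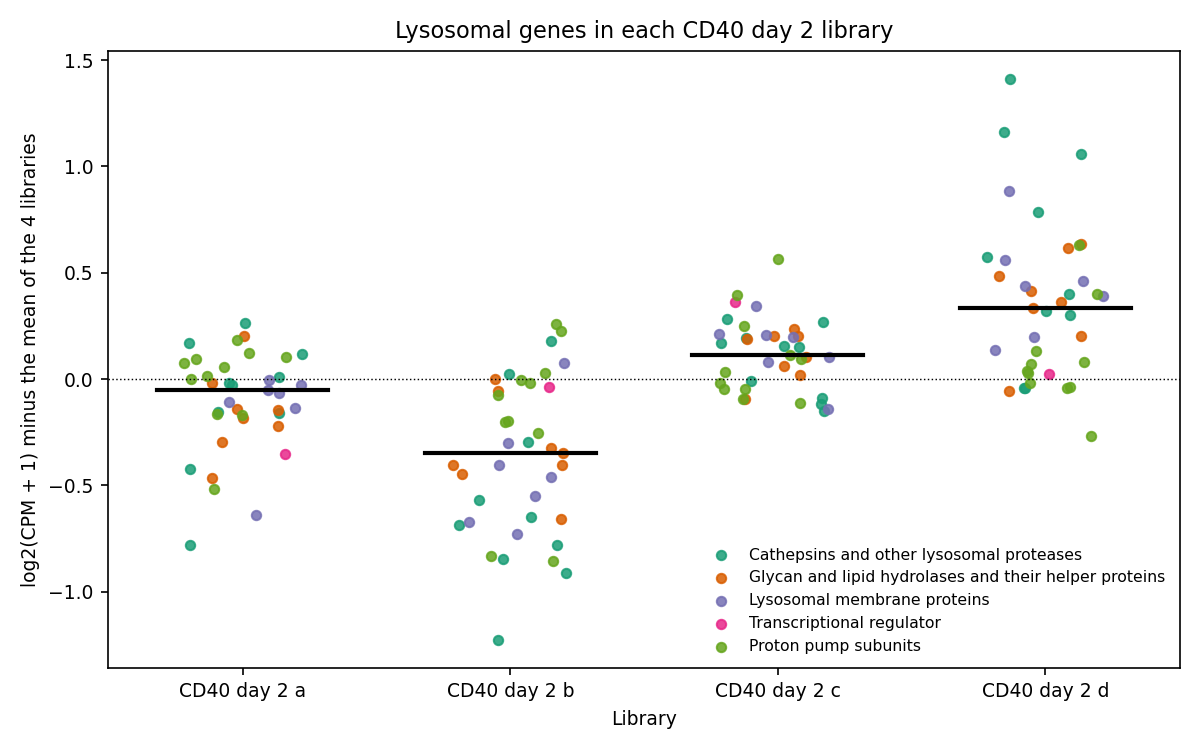
Deviation of each lysosomal gene in each CD40 day 2 library from the mean of the 4, on log2(CPM + 1), coloured by role, with a black bar at the median over all 37 genes. The bars stand at -0.05, -0.35, 0.11 and 0.33 in libraries a to d, and the medians of the pump genes alone are -0.08 in b and 0.04 in d.

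Other genes of the pathway were taken from lists of peptidases, hydrolases, transporters, sorting factors, regulators and inhibitors. Of 98 tested, 34 were higher (34.7%) and 23 lower (23.5%), with a median log2 fold change of 0.09. The called share of 58.2% was near the 53.4% of all genes tested, of which 23.2% were higher and 30.2% lower. Of the 98, 12 did not pass the filter on low counts in both groups. Ctss, the cathepsin that cuts the invariant chain in antigen-presenting cells, had 4123, 3694, 4465 and 5505 CPM in CD40 day 2, against 811 and 806 CPM in Kupffer day 0. It rose by 2.46 ± 0.21 (adjusted p = 1.14e-05), opposite to Ctsl, and Scpep1, a serine carboxypeptidase, rose by 0.70, whereas Ctso, Aga and Dpp7 fell (-1.38, -1.14 and -1.10). In all 2 of the 8 genes tested on the peptidase list were higher (25%) and 4 lower (50%), beside the same 23.2% and 30.2% of all genes. Among the 4 lower, Aga and Plbd2 are not peptidases. Of 29 other hydrolases and activators, 9 were higher (31.0%) and 7 lower (24.1%), a called share of 55.2% that is also near that of all genes. Of the 26 that passed the filter on low counts in both groups, 8 were higher and 6 lower. Naaa, which hydrolyses N-acylethanolamines, averaged 551 ± 63.1 CPM in CD40 day 2 and 25.9 ± 3.15 CPM in Kupffer day 0 (4.38 ± 0.22, adjusted p = 7.24e-07). Gm2a, the GM2 ganglioside activator that works with β-hexosaminidase, and Ppt1, the palmitoyl thioesterase, rose by 2.88 ± 0.27 and 2.32 ± 0.19 (adjusted p = 2.08e-05 and 8.52e-06). Hyal2, a hyaluronidase, averaged 17.1 ± 9.21 CPM in CD40 day 2 against 353 ± 48 CPM in Kupffer day 0 (-4.35 ± 0.31, adjusted p = 3.69e-06), and the sulfatase Arsa and the sphingomyelinase Smpd1 fell as well (-1.35 and -0.92). The Scpep1 and Smpd1 calls were lost when Kupffer a or Kupffer b was left out (Scpep1 also without CD40 day 2 c), and the Aga call without Kupffer library b.

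Of 20 other membrane proteins and transporters, 8 were higher (40.0%) and 6 lower (30%), beside 23.2% and 30.2% of all genes. Of the 18 that passed the filter on low counts in both groups, 8 were higher and 5 lower. Clcn7, the chloride-proton exchanger, averaged 137 ± 32 CPM in CD40 day 2 and 34.5 ± 2.46 CPM in Kupffer day 0 (2.01 ± 0.27, adjusted p = 0.000178). Pqlc2, a cationic amino acid exporter, and Slc29a3, a nucleoside transporter, rose by 2.25 and 2.20 on the log2 scale, and Laptm4a, Laptm4b and Cd164 fell (-1.37, -1.77 and -1.14). Among 17 genes of mannose 6-phosphate tagging and sorting, 6 were higher (35.3%) and 1 lower (5.88%), beside the same 23.2% and 30.2%. Sorl1, a sorting receptor, rose by 2.36. M6pr, the cation-dependent receptor, averaged 755 ± 104 CPM in CD40 day 2 and 204 ± 14.8 CPM in Kupffer day 0 (1.89 ± 0.19, adjusted p = 3e-05). The subunits of the phosphotransferase that makes the tag differed in sign: Gnptab, the catalytic precursor, averaged 30.01 ± 11.03 CPM in CD40 day 2 and 8.36 ± 1.98 CPM in Kupffer day 0 (1.73 ± 0.42, adjusted p = 0.00653), and Gnptg, its partner, 27.2 ± 2.15 CPM in CD40 day 2 and 78.1 ± 4.07 CPM in Kupffer day 0 (-1.52 ± 0.19, adjusted p = 0.000109). The Gnptab call was lost without Kupffer library a, and the Laptm4b call when Kupffer a or Kupffer b was left out.

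Of 14 genes tested among the relatives of Tfeb and the nutrient sensors at the lysosome, 5 were higher (35.7%) and 4 lower (28.6%), beside 23.2% and 30.2% of all genes. Mitf had 21.8, 31.1, 35.0 and 43.5 CPM in CD40 day 2, against 6.32 and 11.1 CPM in Kupffer day 0, a rise of 2.06 ± 0.40 (adjusted p = 0.00173) in a gene that passed the filter on low counts through CD40 day 2 alone. Tfec, a macrophage member, had 10.9, 1.41, 12.7 and 22.6 CPM in CD40 day 2 and 43.1 and 47.4 CPM in Kupffer day 0, a fall of -1.75 ± 0.47 on the log2 scale (adjusted p = 0.0102). Tfe3 averaged 46.4 ± 16.3 CPM in CD40 day 2 and 54.1 ± 14.0 CPM in Kupffer day 0, with overlap (-0.13 ± 0.33, adjusted p = 0.758). Both the Mitf and the Tfec call were lost without Kupffer library a. Lamtor4 and Lamtor5, of the complex that anchors mTORC1 to the lysosome, rose (1.13 and 0.89), and Flcn, which also acts on that signal, and Zkscan3, a zinc finger factor, fell (-1.06 and -1.12). The Lamtor4 and Flcn calls were lost without Kupffer library a, and the Tfec call without library b as well.

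Of 5 cystatins and other protease inhibitors tested, 3 were higher and 1 lower (60% and 20%, beside 23.2% and 30.2% of all genes). Serpinb1a, named after its values were seen, did not pass the test (1.04 ± 0.49, adjusted p = 0.0974). Both it and Cst7 passed the filter on low counts through CD40 day 2 alone. Cst7, a cystatin that restrains Ctsc in immune cells, had 289, 327, 238 and 172 CPM in CD40 day 2, against 9.19 and 5.57 CPM in Kupffer day 0 (4.99 ± 0.38, adjusted p = 5.33e-06). Cstb, a cytosolic cystatin, averaged 2236 ± 619 CPM in CD40 day 2 and 524 ± 15.6 CPM in Kupffer day 0 (2.10 ± 0.27, adjusted p = 0.000151). Cst3, the secreted cystatin, had 3831, 8051, 3044 and 3069 CPM in CD40 day 2, against 1229 and 1526 CPM in Kupffer day 0, with library b highest (1.71 ± 0.40, adjusted p = 0.00551, lost without Kupffer library a). Serpinb6a, a serine protease inhibitor, averaged 15.0 ± 7.15 CPM in CD40 day 2 and 332 ± 13.5 CPM in Kupffer day 0 (-4.39 ± 0.29, adjusted p = 2.12e-06).

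**Figure D4:**
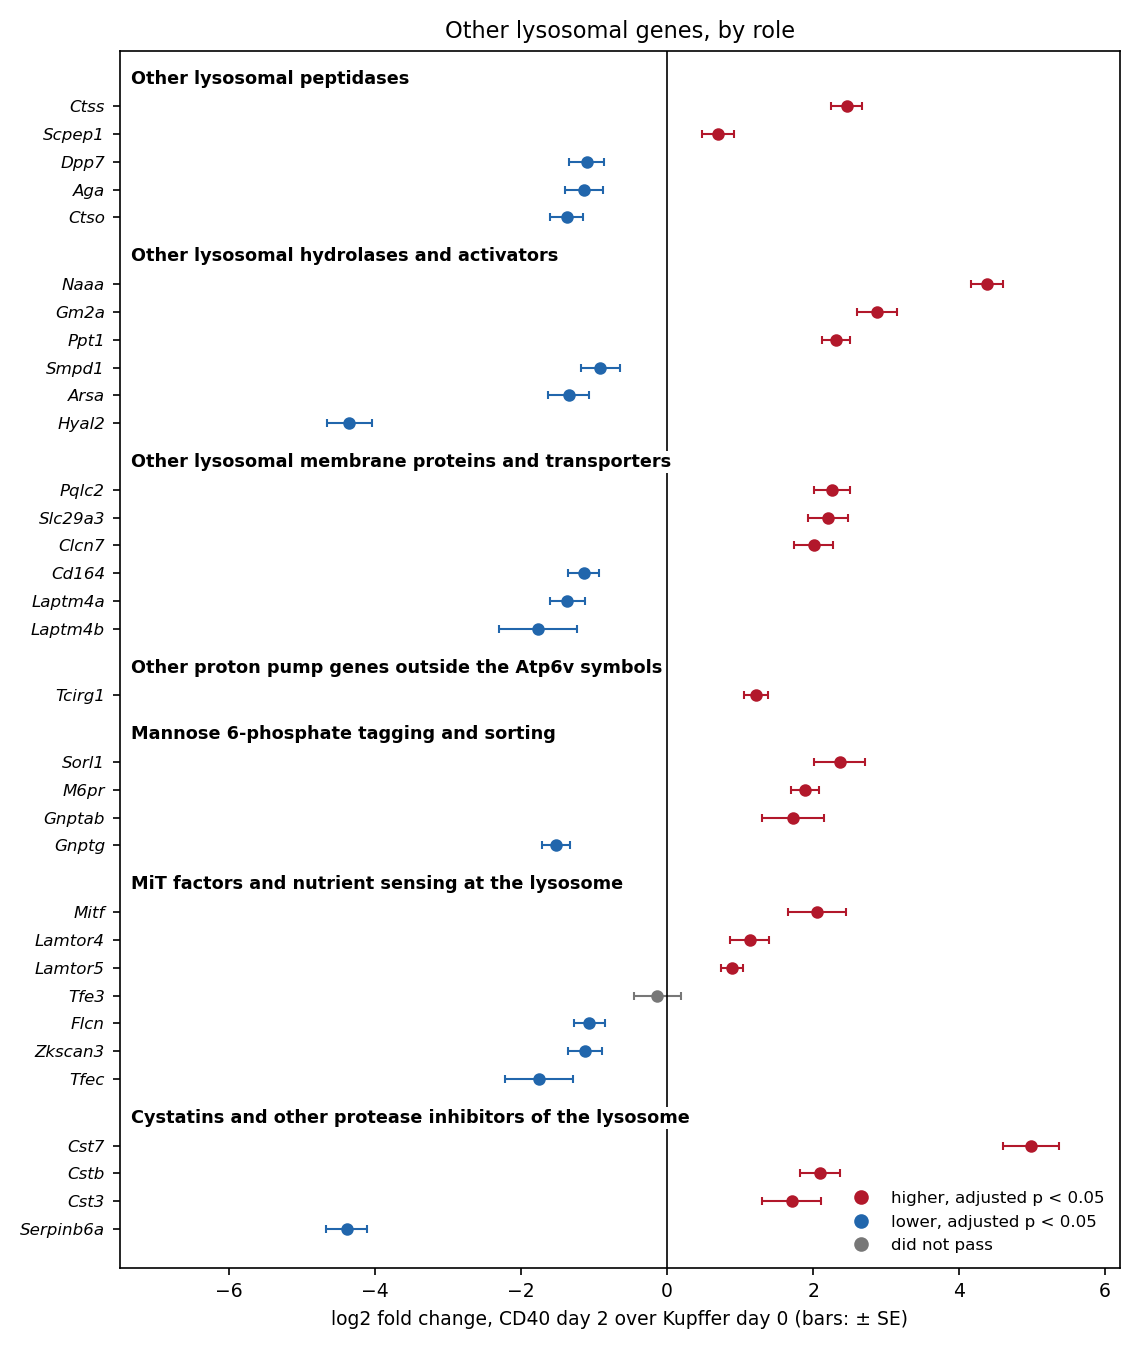
Log2 fold change (CD40 day 2 over Kupffer day 0) of other lysosomal, sorting, regulatory and inhibitor genes named in the text, with lines of 1 standard error, red for genes called higher, blue for genes called lower and grey for the rest. Cst7 and Naaa lie highest, at 4.99 and 4.38, and Serpinb6a and Hyal2 lowest, at -4.39 and -4.35. Cst7, like Mitf, passed the low-count filter through CD40 day 2 alone.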

How the data were processed

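The deposited values were raw counts, whole numbers per gene symbol made by the authors, in a table of 25919 rows and 12 value columns. Bulk libraries were made from the 3′ end of poly(A) RNA with a barcode and a molecular identifier, per the labels' protocol, and sequenced on a NextSeq 500. The sources used here do not give the aligner, the annotation or whether reads or identifiers were counted. GRCm38.p6 as build and DESeq2 1.22.2 as a tool are named, per the submitters' processing notes. No rows lacked a name, and 17 names were dates.

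The 4 CD40 day 2 and 2 Kupffer day 0 libraries were fitted alone with edgeR 4.0.16 in R 4.3.3 (TMM scaling, filterByExpr, quasi-likelihood test, two-sided, Benjamini-Hochberg over 9852 genes, threshold 0.05). Columns carry no replicate number, so libraries are called a to d in table order, as names only. CPM use the TMM-scaled totals. A gene was said to pass the filter in a group where at least 2 of its libraries reached 7.16 CPM, unscaled. Fits were tested on simulated data with few genes changed, equally up and down. That setting does not cover differences as broad as those between these groups. Within groups, library pairs differed by more than counting error (chi-square over its degrees of freedom, 3.17 to 11.7). The biological coefficient of variation was 20.4%. Alternatives were DESeq2 1.42.0, limma-voom (limma 3.58.1), other scalings, other filters and leaving out each library. Copies of 3′ ends were searched with BLAST 2.17.0 (last 500 bases, at least 75 bases at 95% identity).

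The genes and lists were chosen with earlier results of these data known. Values in every library are given, by role, for the called genes with the 4 largest changes in each direction and the 3 most abundant genes. For other pathway lists, up to 3 called genes per direction with a mean of at least 20 CPM were named. Ctss, Tcirg1, Mitf, Tfe3, Tfec and Cst3 were named regardless. Of the other marker lists, natural killer, T, B and plasmacytoid dendritic cells each took at most 0.0284% of counts in any library.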

Additional observations from a re-analysis of the deposited data

Results flagged for a closer look

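In 70 groups of 4 CD40 day 2 libraries, 1 for each of the 37 lysosomal genes tested and 33 other genes, the highest or lowest library was compared with the spread of the group, a test that chance passes in about 1 of 20 groups. Library b stood apart in 3, close to what that rate gives for 70 groups. Ctsc had 1487 CPM in CD40 day 2 b, the lowest of the 4. Cd164, a sialomucin of lysosomes, had 99.0 CPM in b, the highest of the 4, and Cst3 had 8051 CPM in b, also the highest.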

How the results depend on the processing

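Of the 26 lysosomal genes called, 16 kept the call under every alternative that tested them, 10 lost it under 1 or more of the 12 and none turned its direction. Leaving out 1 library at a time gave 3206 to 5514 genes called in all, 8 to 23 lysosomal genes higher and 8 to 10 lower. The lowest counts, 3206 genes and 8 higher, came without Kupffer library a, so that the single Kupffer library left takes its spread from the CD40 day 2 group. The 23 higher came without CD40 day 2 library b, which added Ctsb, Asah1, Cd63, Npc1, Atp6v1a, Atp6v1g1 and Atp6v1h. Other settings gave 14 to 17 higher and 8 to 11 lower, and 3850 (stricter filter) to 6158 (no filter) genes called in all. With no scaling the median of all genes was -0.27 rather than -0.10. Some genes that were not called turned sign. Lamp1 was at 0.044 with DESeq2, 0.0779 with upper quartile scaling and 0.013 with no filter, Ctsd at 0.011 with upper quartile scaling, and Hexa at -0.023 with no scaling. Leaving out 1 library at a time gave -0.15 to 0.24 for Lamp1, -0.38 to 0.23 for Ctsd, -0.050 to 0.33 for Hexa and -0.42 to 0.13 for Tfe3. Of the 32 other lysosomal genes named as called, 22 kept the call under every alternative. The cause was not tested. No paired analysis was possible because the columns carry no replicate numbers. The 10 genes with few counts were not compared, and whether depth is what limits them was not tested.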
